A study of Mus musculus with 2 samples.

Results

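The Vcan-dominant recruited macrophages of injured muscle 1 day after damage were 742 cells of 1 droplet single-cell RNA sequencing library, out of 6735 cells kept in that library. The samples were quadriceps muscles of WT male C57BL/6J mice, 14 weeks old, injected with BaCl2, a salt that kills muscle fibres and sets off inflammation and repair. The muscle mononuclear cells were collected 1 day or 3 days later, sorted by scatter to remove debris, dead cells and doublets, combined from several mice, frozen and thawed before encapsulation. Each time point was 1 library, no uninjured muscle was analysed here, and every animal received the same injury. A difference between groups therefore had no replicate check, no test was run, and mice within a library could not be told apart.

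Members were chosen by their RNA. A cell needed at least 1000 UMIs (unique molecular identifiers, each standing for 1 captured mRNA), at least 200 genes and at most 7.5% mitochondrial UMIs. It then needed at least 1 UMI of Fcgr1, the macrophage receptor CD64, and Lyz2, the myeloid lysozyme, at 0.3% of its UMIs or more. Cells with S100a8 and S100a9 at 2% or more, collagen genes and Dcn at 0.3% or more, MHC class II genes at 0.5% or more, Plac8 at 0.1% or more, or 3 or more UMIs of Cd163 and Lyve1 were left out, which took away neutrophil-rich, fibroblast-rich, class II-rich, monocyte and resident-like profiles. Of the 2209 cells left, the 742 members had at least 3 UMIs of Vcan and no fewer Vcan than Pf4 UMIs, 33.6% (31.6 to 35.6, exact binomial 95% interval) of these recruited macrophages and 11.02% (10.3 to 11.8) of all cells. A further 1224 cells had at least 3 Pf4 UMIs and more Pf4 than Vcan and are called Pf4-dominant, 243 cells met neither condition, and 267 cells that passed the other gates but had Plac8 at 0.1% or more are called Plac8-high. In the day 3 library 122 of 1794 cells passed the same gates and the same Vcan and Pf4 conditions, 6.80% (5.68 to 8.07).

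Recruited macrophages start as blood monocytes that enter damaged muscle through CCR2 and, over hours to days, lose monocyte genes such as Ly6c2 and gain lysosomal, phagocytic and lipid handling genes while they clear dead fibres. Vcan encodes versican, a large proteoglycan that binds hyaluronan in the provisional matrix and is made in quantity by classical monocytes. Pf4 encodes platelet factor 4, a CXC chemokine that macrophages also make. The genes that chose the cells (Vcan, Pf4 and the other gate genes) describe the groups and are not results.

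Levels below are given as CPM, the number of UMIs of a gene for every 1000000 UMIs in all cells of the group together, and parentheses hold exact Poisson 95% intervals. Ratios are log2 ratios of these levels with exact binomial 95% intervals. Both kinds of interval cover counting error only, not the difference between mice, libraries or cells. The members held 8924822 UMIs in all, with a median of 11062 UMIs and 2630.5 genes in a cell, close to the 12323.5 UMIs and 2776.5 genes of the Pf4-dominant cells. The libraries held 74852240 UMIs (day 1) and 102565783 UMIs (day 3) over all barcodes, and they shared 0 cell barcodes.

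**Figure D1:**
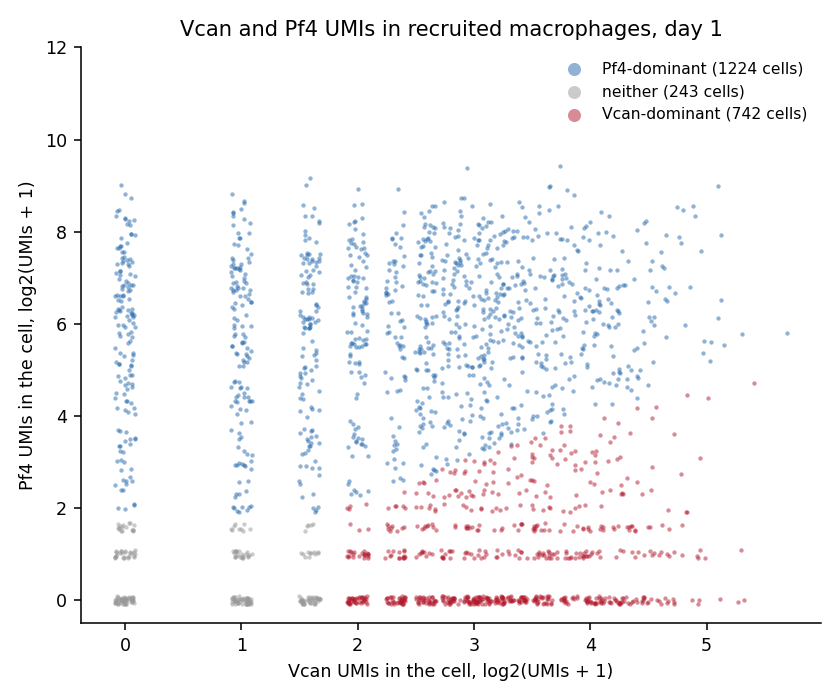
Vcan UMIs (x axis) and Pf4 UMIs (y axis) of each of the 2209 recruited macrophages of day 1, both as log2(UMIs + 1), with a small random shift so that cells with equal values can be seen. Colours give the 742 Vcan-dominant, 1224 Pf4-dominant and 243 other cells, and the Vcan-dominant cells lie along the bottom, with no gap in Vcan between them and the Pf4-dominant cells.

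Vcan itself separated the groups little, and Pf4 a great deal. The median member had 8 Vcan UMIs (highest 43) and 1 Pf4 UMI (upper quartile 2, highest 24), and 364 of the 742 members, 49.1% (45.4 to 52.7), had no Pf4 UMI at all. The median Pf4-dominant cell had 5 Vcan UMIs and 67 Pf4 UMIs, and 816 of the 1224 Pf4-dominant cells, 66.7% (63.9 to 69.3), also had 3 or more Vcan UMIs. Of all 2209 recruited macrophages, 1960, or 88.7% (87.3 to 90.02), had a Vcan UMI. The Vcan level was 848 (829 to 867) CPM in the members, 465 (454 to 475) in Pf4-dominant cells and 618 (590.1 to 647) in Plac8-high cells, while Pf4 stood at 141 (134 to 149), 7486 (7445 to 7528) and 1182 (1143 to 1222).

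Cells on either side of the limits differed in some genes and hardly in others. The 68 members with exactly 3 Vcan UMIs had Ly6c2 at 98.8 CPM, Arg1 at 582 and Fdps at 315, and the 57 cells just outside, with 2 Vcan UMIs, had 89.8, 1246 and 166. At this limit C1qb was at 372 and 371, Mrc1 at 163 and 68.3 and Il1b at 11259 and 9734. The 21 members with equal Vcan and Pf4 had Ly6c2 at 68.6 CPM, C1qb at 694 and Il1b at 7004. The 26 Pf4-dominant cells with 1 more Pf4 than Vcan UMI had Ly6c2 at 63.5, C1qb at 424 and Il1b at 8249. Between these sets Arg1 was at 1429 and 1207, Fdps at 416 and 202 and Mrc1 at 355 and 208. Arg1, C1qb and Mrc1 were thus higher on the member side here, opposite to the whole groups. These sets are small and their values carry no intervals. The limits cut a continuous range of Vcan and Pf4 counts.

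Lineage markers placed the members among monocytes and macrophages. Csf1r, the receptor for the survival factor CSF1, stood at 215 (206 to 225) CPM and Itgam (CD11b) at 579 (563 to 595), Cd68 at 582 (566 to 598), Cd14 at 5153 (5106 to 5200.1) and Ccr2 at 396 (383 to 409). Adgre1, which encodes F4/80, was at 140.2 (133 to 148) against 243 (236 to 251) in Pf4-dominant cells, and the efferocytosis receptor Mertk was low, at 8.07 (6.31 to 10.2). Markers of other cells were summed over their whole lists: over 10 fibroblast genes the members had 249 CPM (289 in Pf4-dominant cells), over 10 dendritic cell genes 358 (348, 2 at 0 in the members), over 8 endothelial genes 48.0 (44.7), over 10 T, B and NK cell genes 22.1 (38.7, with 6 of the 10 at 0 in the members) and over 10 muscle genes 3.36 (7.59, 4 at 0). The 8 mast cell and basophil genes summed to 0.448 (6 at 0) and the 8 erythroid and platelet genes to 0.336 (5 at 0). The 12 neutrophil genes summed to 1823 CPM in the members, 1015 in Pf4-dominant cells, 2714 in Plac8-high cells and 127006 in 1218 neutrophil-like cells of the same library. The neutrophil-like cells were chosen by high S100a8 and S100a9 and no Fcgr1.

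Of the 5 genes proposed as marks of these cells, only Vcan (which chose them) and Dmkn stood 1.5-fold or more above the Pf4-dominant cells. Dmkn, which encodes the secreted protein dermokine, was at 189 (179.7 to 198) CPM in members, 81.3 (77.0 to 85.8) in Pf4-dominant and 241 (224 to 259.8) in Plac8-high cells, so it was 2.32-fold above the first and below the second. Mmp19, a metalloproteinase, was at 262 (252 to 273), 198 (191 to 205) and 234 (217 to 252). Serpinb2, an inhibitor of plasminogen activators, was at 228 (218 to 238), 177 (171 to 184) and 157 (143 to 172), all of it in 143 of the 742 members. Ccl9, a chemokine for CCR1, was lower in members, at 3579 (3540.0 to 3619), than in Pf4-dominant cells, at 4172 (4140.4 to 4203), and above the 2292 (2237 to 2348) of Plac8-high cells. With Vcan left aside, the members differed from Pf4-dominant cells by 1.5-fold or more in Dmkn and by less in Mmp19, Serpinb2 and Ccl9.

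Shares of cells with a UMI followed the levels. With every cell thinned to 1000 UMIs, a Dmkn UMI was found in 15.1% (12.6 to 17.9) of members, 6.37% (5.07 to 7.89) of Pf4-dominant and 21.3% (16.6 to 26.8) of Plac8-high cells, and unthinned in 54.6%, 36.0% and 62.9%. A Mmp19 UMI was found in 18.6%, 14.9% and 16.9% of the thinned cells. The genes lie at Vcan chr13:89655309-89743027, Dmkn chr7:30763756-30781066, Mmp19 chr10:128790910-128800827, Serpinb2 chr1:107500892-107525600, Ccl9 chr11:83572917-83578636 and Pf4 chr5:90772435-90773383 (GRCm38).

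The first comparison asked how the members differed from the Pf4-dominant macrophages of the same muscle, library and gates. In short, the members had more RNA of monocyte genes and of the cholesterol synthesis enzymes, less of lysosomal, complement and lipid handling genes, of Arg1 and Mrc1 and of most chemokines, and nearly equal levels of Il1b, Tnf and NF-kB feedback genes. Among 7868 genes with at least 100 UMIs over both groups, 75 (0.953%) were 2-fold or more higher in the members and 104 (1.32%) 2-fold or more lower, and 66.1% lay within 1.2-fold of equality (median log2 ratio 0.01). In 12 of the 75 and 3 of the 104, over 50% of the UMIs of the higher group came from 5 cells.

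**Figure D2:**
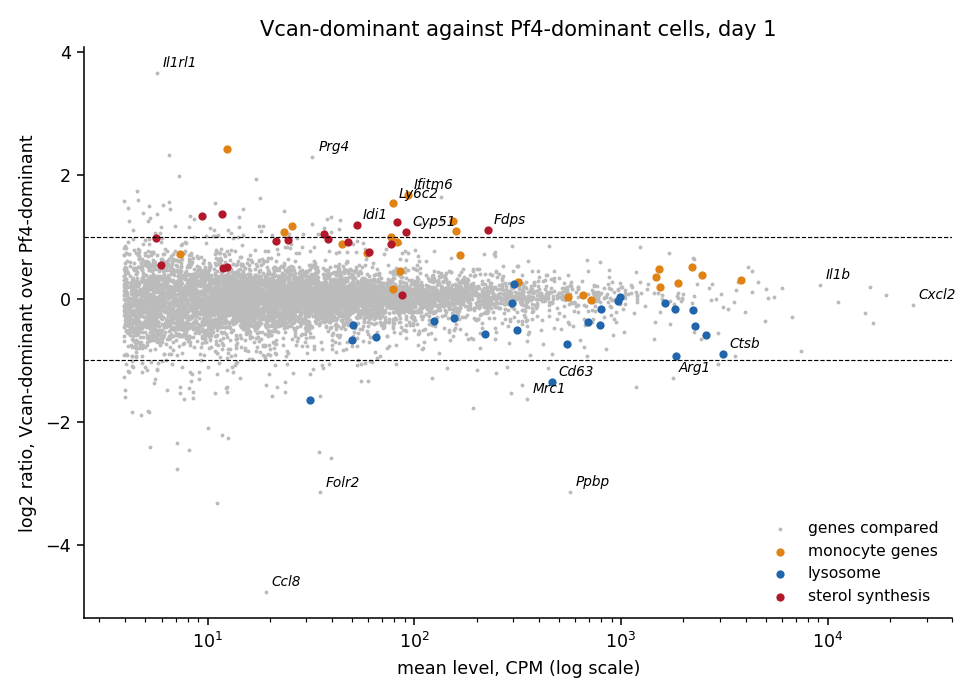
Each of the 7868 genes compared between Vcan-dominant and Pf4-dominant cells of day 1, with its mean level (x axis, CPM, log scale) and log2 ratio (y axis), and dashed lines at 2-fold. Monocyte genes and sterol synthesis genes are coloured and lie mostly above 0, and lysosomal genes mostly below.

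Monocyte genes lay on the higher side. Of 28 genes on a list of monocyte genes, 26 were compared, 7 were 2-fold or more higher in the members and 0 lower, 25 were above equality, and the median log2 ratio was 0.62. Ly6c2, which encodes the Ly6C antigen used to sort inflammatory monocytes, was at 138 (130.2 to 146) CPM against 47.1 (43.9 to 50.6), a log2 ratio of 1.55 (1.42 to 1.68). Itgal, the LFA-1 alpha chain, was at 32.2 (28.5 to 36.1) against 10.4 (8.88 to 12.1). The interferon-induced membrane protein gene Ifitm6 was at 168 (159.9 to 177) against 52.4 (49.0 to 56.0), and Napsa, an aspartic protease, at 248 (238 to 259) against 104 (98.8 to 109). Chil3, the secreted chitinase-like protein Ym1, was higher by less, at 2918 (2883 to 2954) against 1853 (1832 to 1873), and Cd52, a surface glycoprotein of leukocytes, was at 2302 (2271 to 2334) against 1381 (1363 to 1399).

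Several of these genes are also expressed by neutrophils, whose RNA was plentiful in this library. Lcn2, an iron-sequestering protein, was at 241 (231 to 251) CPM in members and 76.9 (72.8 to 81.3) in Pf4-dominant cells, and at 2274 in the neutrophil-like cells. Hp (haptoglobin) was at 239 (229 to 249.7) against 103 (97.8 to 108), with 1399 in neutrophil-like cells, and Gsr (glutathione reductase) at 221 (211 to 231) against 91.2 (86.7 to 95.9), with 898. Of 8 neutrophil markers compared, 7 were above equality, 2 by 2-fold or more and 0 lower, with a median log2 ratio of 0.72, and the part of neutrophil RNA in the monocyte gene ratios was not tested. S100a9, which with S100a8 served as a gate, was at 255 (245 to 266) and 246 (239 to 254), with 55066 in the neutrophil-like cells, and S100a8 at 1009.9 (989 to 1031) and 469 (459 to 480.0). S100a8 stood at 3.96 times S100a9 in the members, 1.91 times in Pf4-dominant cells, 4.73 times in Plac8-high cells, 0.944 times in neutrophil-like cells and 1.06 times in near-empty barcodes, which hold the free RNA of the suspension. Both genes served to choose the groups of cells, so these ratios describe the groups and are not results. Ly6c2 and Ifitm6, in turn, were at 41.5 and 192 in the neutrophil-like cells. A share of free RNA worked out from collagen genes was 4.79% of UMIs in the members and 4.94% in Pf4-dominant cells. Collagen genes also served as a gate, and cells rich in them had been left out. These shares therefore depend on that gate and set no upper limit for free RNA.

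Arg1, Mrc1 and most of the complement and clearance receptor genes compared were lower in the members. The paper counts Arg1 among the inflammatory genes of its pro-inflammatory subcluster. Arg1, the arginase that turns arginine into ornithine, was at 918 (898 to 938) CPM against 2237 (2214 to 2259.7) in Pf4-dominant cells, 2.44-fold lower, and was detected in 57.3% of members and 85.6% of Pf4-dominant cells. Mrc1, the mannose receptor CD206, was at 148 (139.9 to 156) against 458 (448 to 469). The 3 chains of complement C1q stood at 160.0, 432 and 160.2 CPM (C1qa, C1qb, C1qc) against 425, 823 and 344. Of 24 genes for clearance receptors and complement, 20 were compared, and 4 were 2-fold or more lower and 0 higher, with a median log2 ratio of -0.33. The other 2 of the 4, beside C1qa and C1qc, were Cd36, given below, and Gas6, a bridging protein for dying cells, at 1.34 (0.695 to 2.35) against 7.40 (6.15 to 8.84).

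Lysosomal genes lay below equality nearly as a block, though few by 2-fold. All but 2 of the 24 compared (of 25 listed) were below 0, 2 of them by 2-fold or more and 0 above by 2-fold, with a median log2 ratio of -0.42. The cysteine proteases Ctsb and Lgmn were at 2001 (1972 to 2030.5) and 1161 (1138 to 1183) CPM against 3723 (3693 to 3752) and 2207 (2184 to 2229.6), and the aspartic protease Ctsd at 1942 (1913 to 1971) against 2922 (2896 to 2948). The past 2-fold pair were Cd63, a tetraspanin of late endosomes, at 231 (222 to 242) against 592 (581 to 604), and Gpnmb, a glycoprotein of phagocytic macrophages, at 13.1 (10.8 to 15.7) against 41.2 (38.2 to 44.4).

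Lipid handling genes showed the same direction. Of 18 listed genes 17 were compared, and 5 were 2-fold or more lower and 0 higher (median log2 ratio -0.44), while its members above equality included Sqle and Hmgcs1, which belong to sterol synthesis and are described below. Fabp5, a fatty acid carrier, was at 558 (543 to 574) CPM against 1513 (1494 to 1532), the scavenger receptor Cd36 at 135 (127 to 143) against 310.3 (302 to 319), and the lipid-sensing receptor Trem2 at 62.4 (57.3 to 67.8) against 153 (147 to 159). Abca1, which exports cholesterol from the cell, was at 36.9 (33.0 to 41.1) against 74.3 (70.2 to 78.6). Spp1 (osteopontin) was at 4878 (4832 to 4924) against 8836 (8791 to 8882), and the anti-inflammatory cytokine Il10 at 81.2 (75.4 to 87.4) against 178 (172 to 185).

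Among the lowest log2 ratios were genes known from resident-like macrophages and chemokines. Folr2, a folate receptor, was at 5.71 (4.25 to 7.51) CPM against 51.0 (47.6 to 54.5), Cbr2, a carbonyl reductase, at 8.63 (6.81 to 10.8) against 48.8 (45.5 to 52.3), and the co-receptor Nrp1 at 9.19 (7.31 to 11.4) against 55.8 (52.2 to 59.5). Fcrls was at 1.57 (0.858 to 2.63) against 16.2 (14.3 to 18.3), and Ccl8 at 1.01 (0.461 to 1.91) against 28.9 (26.4 to 31.7), of which 72.5% lay in 5 Pf4-dominant cells. Among 11 listed genes of resident-like macrophages 5 were compared and 4 were 2-fold or more lower, in cells that had been gated to have fewer than 3 UMIs of Cd163 and Lyve1 in both groups. Ppbp, a CXC chemokine encoded next to Pf4, was at 93.4 (87.2 to 100.01) against 822 (808 to 836) and came from 67 members.

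Most chemokines were lower in the members, by amounts that varied with the gene: 2 of 10 CC chemokines compared were above equality (median log2 ratio -0.33) and 3 of 9 CXC chemokines (median -0.55). The monocyte attractants Ccl7 and Ccl12 were lower, at 1721 (1694 to 1749) and 131 (124 to 139) CPM against 3588 (3559 to 3617) and 380.0 (371 to 389.5), as was Ccl24, which draws eosinophils, at 249.98 (239.7 to 261) against 547 (536 to 558). Ccl2, the CCR2 ligand, was less so, at 4209 (4166 to 4251) against 5386 (5350.2 to 5421), and the inflammatory chemokines Ccl3 and Ccl4 were at 1221 and 1390.3 against 1073 and 1621. Among neutrophil attractants Cxcl3 was at 2228 (2197 to 2259) against 4267 (4236 to 4299) and Cxcl1 at 1727 (1699.8 to 1754) against 2521 (2497 to 2546), while Cxcl2, with the highest level of the CXC list, was at 24613 (24511 to 24716) against 26411 (26332 to 26489.5). By counts, 4 of the 10 CC chemokines compared were 2-fold or more lower and 1 higher (Ccl5, from few cells), and of 9 CXC chemokines 1 was lower (Ppbp) and 1 higher (Cxcl12, at 10.53 (8.51 to 12.9) against 3.64 (2.78 to 4.69)).

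Il1b, Tnf and NF-kB feedback genes were level between the groups. Il1b was at 10070.1 (10004 to 10136) CPM in the members and 8608 (8564 to 8653) in Pf4-dominant cells, Il1a at 453 (439.6 to 468) and 471 (461 to 482), Tnf at 417 (404 to 431) and 417 (408 to 427), and Nfkbia, the NF-kB inhibitor induced by NF-kB itself, at 5138 (5091 to 5185) and 5110.2 (5076 to 5145). Of 23 genes of TNF and NF-kB feedback, all compared, 0 were 2-fold apart (median log2 ratio 0.02). The same count of 0 held for 33 transcription factors (median 0.00), 27 glycolysis and hypoxia genes (median -0.05), 10 prostaglandin and leukotriene genes (median 0.16), 15 interferon response genes (median -0.06), while 13 interleukin-1 family and inflammasome genes had 1 higher (Il1rl1, in few cells) and 6 cell cycle genes 0 apart (median -0.02). Ptgs2, which makes prostaglandin precursors, was at 1583 (1557 to 1609) and 1476 (1458 to 1495), and the matrix genes Fn1 (fibronectin) and Thbs1 (thrombospondin 1) at 2939 and 5384 against 3210.4 and 4849. Il6 was higher in the members, at 60.1 (55.1 to 65.4) against 28.5 (25.9 to 31.2), and came from 132 of them, while Il10, given above, was lower.

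Adhesion, growth factor, iron and matrix lists were mixed. Of 24 genes for chemokine receptors and adhesion, 4 were 2-fold or more higher in the members and 1 lower, among them Itgb7, a gut-homing integrin chain, at 65.3 (60.1 to 70.8) CPM against 25.9 (23.5 to 28.5) and the dendritic and macrophage integrin gene Itgax at 16.1 (13.6 to 19.0) against 8.01 (6.70 to 9.50). Of 23 iron, heme and antioxidant genes 4 were higher and 1 lower, and Hmox1, below 2-fold, was at 567 (551 to 582) against 995 (979.6 to 1010.2) while Slc7a11, the cystine transporter, was at 887 (868 to 907) against 577 (565 to 589). Of 17 growth factors and cytokines compared 1 was higher (Il6) and 2 lower (Nrp1 and Pdgfa), of 12 matrix proteases and inhibitors 0 and 2 (Mmp12 and Timp2), of 18 matrix and hyaluronan genes 1 and 0 (Tnc), of 11 plasminogen and coagulation genes 0 and 0, of 17 arginine, itaconate and alternative activation genes 0 and 3 (Mrc1, Arg1 and Il10), of 3 cathelicidin, stefin and cystatin genes 0 and 0, and of 13 heat shock genes 0 and 0. The shares of all genes past 2-fold were 0.953% and 1.32%, and these lists were not tested against them.

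Some of the highest log2 ratios rested on a handful of cells. Il1rl1, which encodes the IL-33 receptor ST2, had 126 UMIs in the members, but in 10 cells, and 5 of them held 96.0%. The same held for Tnc, a matrix glycoprotein (97.0% of UMIs in 5 cells), Prg4, the lubricant proteoglycan 4 (94.3%), Ccn2, a matricellular growth factor (92.6%), and the chemokine Ccl5 (67.5%). By contrast the 5 cells with most UMIs held 6.18% of Ly6c2, 4.90% of Fdps and 9.14% of Arg1.

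**Figure D3:**
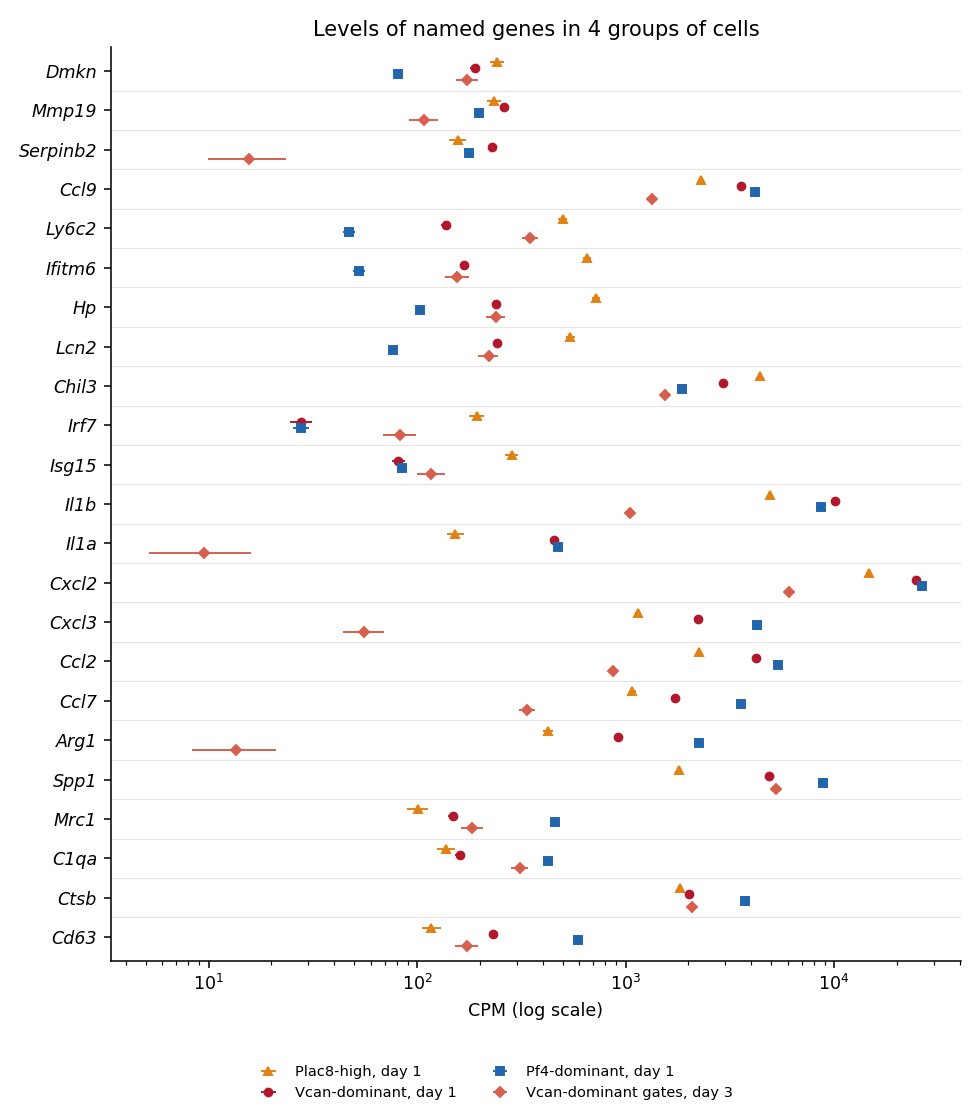
Levels of 23 genes (x axis, CPM, log scale) in Plac8-high, Vcan-dominant and Pf4-dominant cells of day 1 and in the day 3 cells of the same gates as the Vcan-dominant cells, with exact Poisson 95% intervals for counting error. Vcan-dominant cells lie between the other day 1 groups for Ly6c2, Ifitm6, Hp, Lcn2, Chil3, Ccl7, Arg1, Spp1 and Mrc1, and level with Pf4-dominant cells for Irf7, Isg15 and Il1a.

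The enzymes that make cholesterol were higher in the members than in both neighbouring groups of day 1. Cells build cholesterol from acetyl-CoA in a long chain of steps and the genes of the chain are switched on together by the transcription factor SREBP2 when cell sterol runs low. This list of 20 genes was drawn up after the levels had been seen, so its counts describe these cells and support nothing. All 18 of the 20 genes that passed the UMI minimum were above equality against Pf4-dominant cells, 7 by 2-fold or more and 0 lower, with a median log2 ratio of 0.96 against 0.01 over all genes. Against Plac8-high cells 15 of 16 were above equality, 5 by 2-fold or more, with a median of 0.91. Summed over the 20 genes the level was 1319 CPM in the members, 686 in Pf4-dominant cells and 736 in Plac8-high cells.

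Early and later steps of the chain took part. Hmgcs1, which acts early, was at 69.1 (63.8 to 74.8) CPM against 36.5 (33.7 to 39.6) in Pf4-dominant and 42.1 (35.0 to 50.2) in Plac8-high cells. Idi1 and Fdps, which build farnesyl pyrophosphate, were at 83.1 (77.3 to 89.3) and 349.8 (338 to 362) against 36.1 (33.3 to 39.1) and 161 (155 to 167), and 45.5 (38.1 to 54.0) and 142 (129 to 157). A Fdps UMI was found in 23.7% (20.7 to 26.9) of members thinned to 1000 UMIs, 13.7% (11.8 to 15.8) of Pf4-dominant, 10.1% (6.77 to 14.4) of Plac8-high and 0.493% of neutrophil-like cells, and unthinned in 68.5%, 50.9% and 40.1% of the first 3 groups.

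Later steps showed the same order. Sqle, which makes the epoxide of squalene, was at 56.1 (51.3 to 61.3) CPM against 28.5 (26.0 to 31.2) and 29.1 (23.2 to 36.0) in Pf4-dominant and Plac8-high cells, and the demethylase Cyp51 at 139 (132 to 147) against 65.4 (61.6 to 69.4) and 71.5 (62.2 to 81.9). Ebp, a sterol isomerase, was level, at 90.1, 86.1 and 94.5. Among genes of sterol control, Insig1, which holds SREBP back, was at 112 in members, 71.4 in Pf4-dominant and 80.4 in Plac8-high cells, and Srebf2, the gene of SREBP2, at 97.4, 73.5 and 73.6. The fatty acid enzymes Fasn and Scd2 were at 22.2 (19.2 to 25.5) and 23.4 (20.4 to 26.8) in members against 9.95 (8.49 to 11.6) and 9.28 (7.87 to 10.9) in Pf4-dominant cells.

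Members that were high in Fdps tended to be high in Cyp51 and Idi1, the 2 pairs of this chain that were looked at. Among 730 members thinned to 4000 UMIs, Spearman's rho of Fdps was 0.41 with Cyp51 and 0.38 with Idi1, over cells that share a library and a depth. In the members 5 cells held 4.90% of the Fdps UMIs and 4.59% of the Cyp51 UMIs, so the level was spread over the group. Of 6361 genes, 41 were 1.5-fold or more above both the Pf4-dominant and the Plac8-high cells, and 32 were as far below both. The 41 included Fdps, Hsd17b7, Sc5d, Cyp51, Sqle, Pmvk, Idi1, Fdft1, Mvd and Hmgcs1 of this chain. The list had been drawn up with these levels known, so the overlap is a description only.

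**Figure D4:**
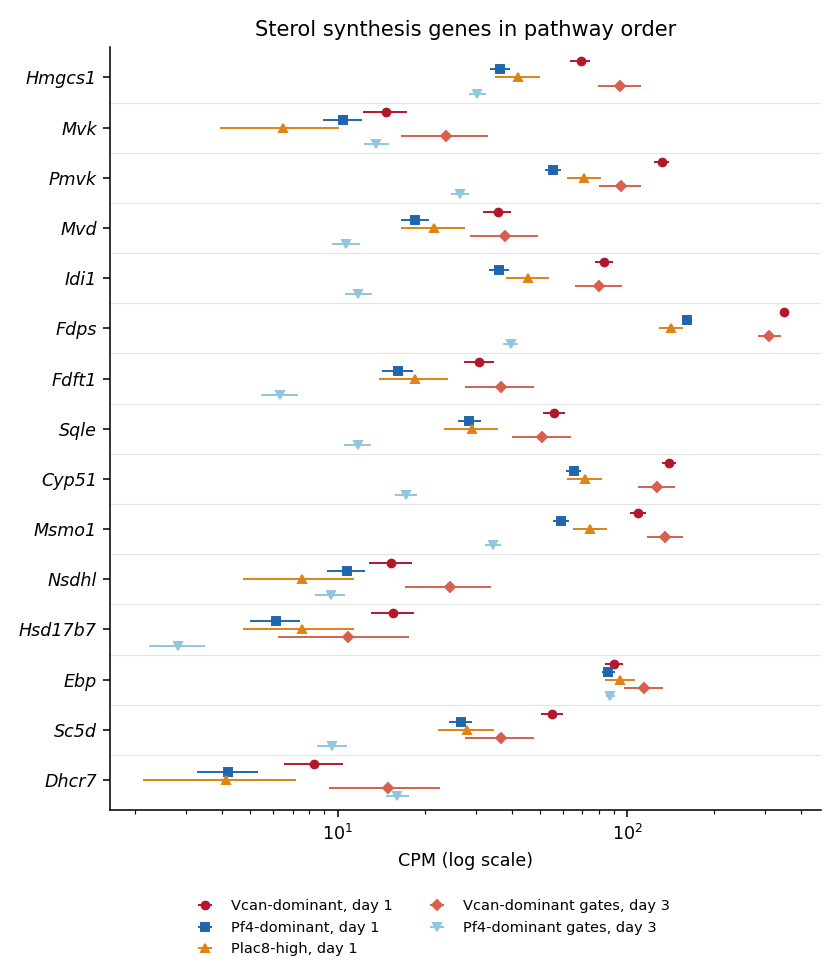
Levels of 15 cholesterol synthesis genes in pathway order (x axis, CPM, log scale), with exact Poisson 95% intervals for counting error, in 3 groups of day 1 and 2 groups of day 3. Except for Ebp, the Vcan-dominant cells of day 1 lie to the right of the Pf4-dominant and Plac8-high cells, and the Vcan-dominant cells of day 3 lie close to those of day 1 or to their right for most genes.

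Promoters of the chain are shown because most of its genes were higher in the members than in both neighbouring groups. RefSeq promoters on GRCm38.p6, from 250 bases before to 50 bases after each start, were found for 15 of the 20 genes. The letters TCACNCCAC, searched on both strands as one form of the sterol element that SREBP binds, were in 1 of the 15 (Hmgcs1) and in 1.44% of all 27025 genes with a promoter. The letters CCAAT on either strand, the box bound by NF-Y, were in 14 of the 15 and in 41.1% of all genes. The 250 bases before the start follow for Hmgcs1 (chr13:119690101-119690350, plus strand), Idi1 (chr13:8885356-8885605, plus strand) and Cyp51 (chr5:4104698-4104947, minus strand), 5′ to 3′ on the gene's strand, with both kinds of match in capitals; a match or its absence describes these letters only.
Hmgcs1: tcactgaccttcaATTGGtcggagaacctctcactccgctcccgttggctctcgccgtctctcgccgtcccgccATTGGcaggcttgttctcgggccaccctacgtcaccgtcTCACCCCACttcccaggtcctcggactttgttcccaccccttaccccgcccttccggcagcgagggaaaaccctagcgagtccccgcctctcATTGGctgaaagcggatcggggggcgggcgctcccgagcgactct
Idi1: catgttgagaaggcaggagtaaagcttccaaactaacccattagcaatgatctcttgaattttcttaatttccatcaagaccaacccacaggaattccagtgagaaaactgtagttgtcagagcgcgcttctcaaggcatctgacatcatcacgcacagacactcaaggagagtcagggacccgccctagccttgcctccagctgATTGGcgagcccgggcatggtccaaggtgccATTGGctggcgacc
Cyp51: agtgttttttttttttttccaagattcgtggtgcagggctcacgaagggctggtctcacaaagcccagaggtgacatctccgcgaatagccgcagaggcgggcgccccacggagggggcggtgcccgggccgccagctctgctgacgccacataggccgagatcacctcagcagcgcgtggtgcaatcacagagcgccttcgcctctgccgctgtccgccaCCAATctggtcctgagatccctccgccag

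The second comparison set the members beside the Plac8-high cells, the most monocyte-like of the day 1 groups compared here by their Ly6c2 level. No condition on Vcan or Pf4 was set on them, so they include some Pf4-rich cells (median 0 Pf4 UMIs, upper quartile 1, highest 274). The members had less RNA of interferon response and monocyte genes and more of chemokine and NF-kB feedback genes. Among 6366 genes with at least 100 UMIs over both groups, 121 (1.9%) were 2-fold or more higher in the members and 172 (2.7%) lower, 55.1% lay within 1.2-fold, and the median log2 ratio was 0.02. The larger count on the lower side depended on the limits: 381 were higher and 267 lower with Plac8 under 0.05% for members and at least 0.2% for Plac8-high cells, and 443 and 432 with a minimum of 20 UMIs. In 16 of the 121 and 3 of the 172, 5 cells held over 50% of the UMIs of the higher group.

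Interferon response genes differed most. Of 24 listed, 16 were compared, 15 were 2-fold or more lower in the members and 0 higher, with a median log2 ratio of -2.07. Irf7, a transcription factor that amplifies the interferon response, was at 27.8 (24.4 to 31.5) CPM against 193 (177 to 209.7), and at 27.7 (25.2 to 30.4) in Pf4-dominant cells. Isg15, a ubiquitin-like protein, was at 81.2 (75.4 to 87.4) against 284 (265 to 304), the 2-5A synthetase-like gene Oasl2 at 8.18 (6.41 to 10.3) against 54.4 (46.3 to 63.6), and the GTPase genes Gbp2 and Ifi47 at 2.02 (1.195 to 3.19) and 4.59 (3.30 to 6.23) against 31.8 (25.7 to 39.0) and 38.0 (31.3 to 45.8). For Irf7 and Isg15 the members and the Pf4-dominant cells, at 84.7 for Isg15, overlapped within their intervals. The limit on Plac8 parted the 2 groups, and the paper names Plac8 among the genes of a reported interferon-responsive macrophage. The ratios grew when the groups were set further apart, with Plac8 under 0.05% for members and at least 0.2% for Plac8-high cells. The log2 ratio then went from -3.95 to -5.21 for Gbp2 and from -3.04 to -4.05 for Ifi47. The ratios thus depended on the Plac8 limits, and how much of them the limit of 0.1% set was not tested. Of the UMIs in Plac8-high cells, 5 cells held 29.4% for Irf7, 43.0% for Gbp2, 28.8% for Ifi47 and 22.6% for Oasl2.

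Many monocyte genes stepped down from Plac8-high cells through the members to Pf4-dominant cells. Of 28 listed, 27 were compared, 8 were 2-fold or more lower in members than in Plac8-high cells and 0 higher (median log2 ratio -0.48), and 9 were above equality in the members. Mgst1, a glutathione transferase, was at 39.2 (35.2 to 43.5) CPM against 248 (230.1 to 267), Ly6c2 at 138 against 498 (473 to 524) and Ifitm6 at 168 against 650.1 (621 to 680.0). Ly6c2 was thus 3.61-fold lower than in Plac8-high cells.

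Il1b, Tnf and most NF-kB feedback and chemokine genes were on the higher side. The members had Il1b at 10070.1 CPM against 4942 (4862 to 5023) in Plac8-high cells, Il1a at 453 against 153 (139 to 168), Tnf at 417 against 175 (160.4 to 191) and Ptgs2 at 1583 against 693 (663 to 724). Of 22 NF-kB feedback genes compared, 21 were above equality and 4 past 2-fold (median log2 ratio 0.37), and the medians of 8 CXC and 9 CC chemokines were 0.85 and 0.66, with 3 and 1 past 2-fold. The interleukin-1 family and inflammasome list did not share that side: of 13 compared, 5 were above equality, 3 were 2-fold or more higher and 4 lower, with a median of -0.33. Spp1 was at 4878 against 1809.9 (1761 to 1859), Cd9, a tetraspanin, at 337 (326 to 349.8) against 125 (112 to 138), and the heparan sulfate proteoglycan Sdc4 at 464 (449.6 to 478) against 196 (180.1 to 213). Arg1 was at 918 against 424 (401 to 448), so the members lay between the monocyte-like and the Pf4-dominant cells for this gene too.

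Most genes that separated the outer groups had an intermediate level in the members, which choosing genes for their distance between those groups favours. Over all 7392 genes compared between the outer groups, the members lay between them for 3898 (52.7%). Of 338 genes 2-fold or more higher in Plac8-high than in Pf4-dominant cells, the members lay between them for 273 (80.8%), and of 368 genes higher in Pf4-dominant cells for 318 (86.4%). The members were above both outer groups for 1 of the 338 and 39 of the 368, and below both for 64 and 11.

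The members were also graded among themselves and merged into their neighbours. When the 1855 recruited macrophages with at least 5 UMIs of Vcan and Pf4 together were split by the Vcan share of that sum, into 540, 486, 184, 148, 189 and 308 cells at 0 to 5%, 5 to 25%, 25 to 50%, 50 to 75%, 75 to 95% and 95 to 100%, both ends were more populous than the middle. Along these bins Ly6c2 went from 29.4 to 60.9, 62.4, 102, 138 and 156 CPM. Ifitm6 went from 23.7 to 74.0, 80.7, 126, 155 and 218 CPM. Mrc1 went the other way, at 514, 445, 352, 251, 167 and 89.5 CPM. Each of these 3 genes kept 1 direction from end to end, also on the side below 50% that holds no members. The bins rest on Vcan and Pf4, which also chose the groups, so trends along the Vcan share describe that split and support nothing.

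Along the bins the sterol genes Fdps (up to the last bin) and Idi1 rose as Ly6c2 and Ifitm6 did, and Il1b changed little beyond the lowest bin. The Plac8-high cells differed: their Ly6c2 was above that of the members, but their sterol synthesis list summed to 736 CPM against 1319. Fdps stood at 112, 180.1, 256, 315, 379 and 369 CPM along the bins, and Idi1 at 24.99, 42.6, 52.2, 64.6, 79.1 and 101. Arg1 stood at 2513, 2142, 1753, 1318, 1107 and 666, and Ppbp at 1103, 686, 418, 315, 57.4 and 9.03. Il1b lay at 7328 CPM in the lowest bin and between 9155 and 10006 in the other 5. Over 1840 recruited macrophages thinned to 4000 UMIs, Spearman's rho with the Vcan share was -0.564 for Lgmn, -0.551 for Ctsb, -0.366 for Arg1 and -0.316 for Mrc1, and 0.451 for Cd52, 0.432 for Tmsb10, 0.315 for Ifitm6 and 0.294 for Ly6c2, against a median of 0.004 over 3792 genes.

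**Figure D5:**
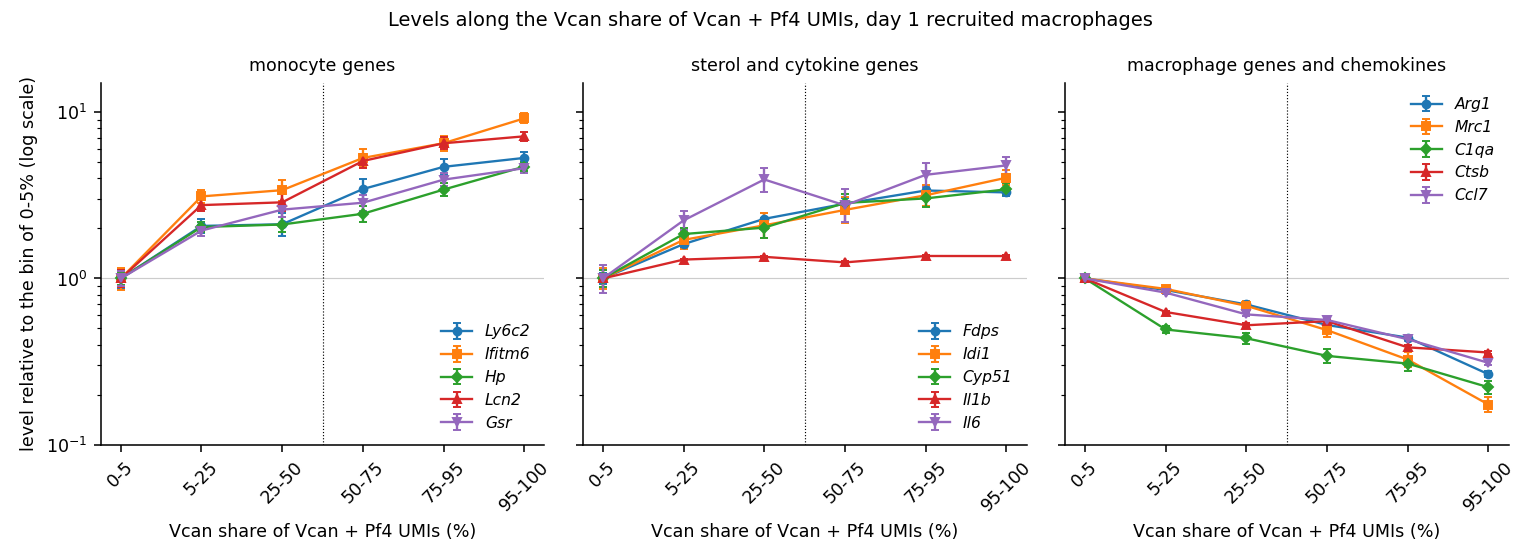
Levels of 15 genes in 6 bins of the Vcan share of Vcan plus Pf4 UMIs (x axis, percent) relative to the lowest bin (y axis, log scale), in 1855 recruited macrophages of day 1, with exact Poisson 95% intervals for counting error. Bins right of the dotted line hold cells with at least as many Vcan as Pf4 UMIs, and Ly6c2, Ifitm6 and Fdps are higher there while Arg1, Mrc1 and Ctsb are lower and Il1b is nearly flat.

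Within the 742 members the same order appeared. The 364 members with no Pf4 UMI had Ly6c2 at 152 CPM, Hp at 293, Arg1 at 668 and Mrc1 at 98.0. The 230 members with Pf4 but at least 3 times as many Vcan UMIs had 141, 214, 1017 and 151, and the other 148 members had 102, 159, 1318 and 251. Ppbp was at 19.8, 51.8 and 315 CPM in these subsets. Fdps (341, 386 and 315) and Serpinb2 (181, 312 and 208) did not follow that order, and Il1b was at 10445, 10137 and 9155.

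The genes that varied most from member to member included cytokines, chemokines, ferritin, heat shock genes and Hmox1. In the 730 members thinned to 4000 UMIs (12 shallower cells left out), the variance divided by the mean had a median of 1.17 over 1043 genes with a mean of at least 0.5 UMI, and 73.4 for Spp1, 48.5 for Cxcl2, 40.1 for Il1b, 35.9 for the ferritin gene Fth1 and 30.3 for Ccl4. Spp1 had a median of 3 UMIs, a 90th percentile of 51 and a highest value of 315, and the 10% of cells with most UMIs held 59.2% of its UMIs. Il1b ran from 1 UMI at the 10th percentile to 30.5 at the median and 108 at the 90th. The heat shock gene Hspa1a was found in 18.2% of the thinned cells, with 91.1% of its UMIs in the top 10% of cells, and Hmox1, which breaks down heme, had 63.7% there.

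Some inflammatory genes varied together and others did not. The first principal component of the members (4.26% of the variance of 1000 genes) had Il1b, Cxcl3, Ptgs2, Cxcl1, Il1a and Ccl3 at one end and Fos, Zfp36l2 and Jun at the other, and its rho with the Vcan share was -0.09. The second (2.31%) had Ccl7, Ccl2 and Spp1 at one end and Chil3, Thbs1, Il1b, Slc7a11, Gsr and Hp at the other, with a rho of -0.29 with the Vcan share and 0.28 with depth. Pairwise, rho was 0.63 for Il1b and Cxcl2, 0.61 for Il1b and Ptgs2, 0.70 for Ccl2 and Ccl7 and 0.56 for Ccl3 and Ccl4, but 0.10 for Il1b and Ccl2, 0.07 for Il1b and Spp1, 0.10 for Il1b and Arg1 and 0.07 for Vcan and Il1b.

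The contrast of Vcan-dominant with Pf4-dominant cells was then read in the day 3 library, which the choice of the day 1 cells had not used. The day 3 groups were made by the same Vcan and Pf4 conditions, so this repeats the same split in other cells. There 122 Vcan-dominant cells stood against 1490 Pf4-dominant cells. Of 9314 genes, 469 (5.04%) were 2-fold or more higher in the former and 1146 (12.3%) lower, larger shares than on day 1. The 122 cells held 1472302 UMIs and the 1490 cells 29173832, so low levels in the former are known loosely. The part of counting error in the larger shares was not tested. Of the 75 genes 2-fold or more higher in members on day 1, 51 could be compared on day 3, and 38 of these (74.5%) were 2-fold or more higher there too. Of the 104 lower genes 103 could be compared, and 71 (68.9%) were again 2-fold or more lower. Over the 7692 genes compared on both days the shares were 5.60% and 6.05%.

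The monocyte, lysosomal and sterol lists had the same direction on day 3, and other lists that were level on day 1 were apart. Of 26 monocyte genes compared 19 were 2-fold or more higher and 0 lower (median log2 ratio 1.94), of 25 lysosomal genes 13 were lower and 0 higher, and of 18 sterol synthesis genes 14 were higher and 0 lower (median 1.90). Of 18 cell cycle genes 16 were lower (median -1.80), of 23 NF-kB feedback genes 10 were higher and 2 lower (median 0.97), and of 13 interleukin-1 family and inflammasome genes 7 were higher and 1 lower (median 1.10). On day 3 Fdps stood at 310.4 (283 to 340.2) CPM in Vcan-dominant and 39.7 (37.4 to 42.0) in Pf4-dominant cells, Cyp51 at 127 (109 to 147) and 17.3 (15.8 to 18.9), Ly6c2 at 348 (319 to 379.9) and 37.3 (35.1 to 39.6), and Dmkn at 174 (153 to 197) and 10.97 (9.80 to 12.2). The median Pf4-dominant cell of day 3 had 18437.5 UMIs and the median Vcan-dominant cell 11447. The sterol list had been drawn up with levels of both days in view.

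The last comparison set the members beside the 122 cells of the same gates on day 3. The members had far more RNA of Il1b, Il1a, Il6, most chemokines, Arg1 and Serpinb2, and about as much of Vcan, Dmkn, Hp, Lcn2 and the sterol genes. They had less of interferon response genes and of some lysosomal and lipid handling genes. Among 6223 genes with at least 100 UMIs over both groups, 233 (3.74%) were 2-fold or more higher on day 1 and 570 (9.16%) lower, so that 29.0% of the genes past 2-fold were higher. The median log2 ratio was -0.21, and with ratios centred on it 351 were higher and 342 lower, 50.6% higher. With a minimum of 500 UMIs 123 were higher and 88 lower. Day, library, the mice and the barcode list of the library (737280 listed barcodes on day 1 and 6794880 on day 3) cannot be told apart, the median mitochondrial share was 2.54% in the members and 4.58% in the day 3 cells, and 122 cells held 1472302 UMIs, so genes with low levels on day 3 are known loosely.

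Il1b, Il1a, Il6 and most chemokines were far higher on day 1. The interleukin-1 family and inflammasome list was mixed: of 13 compared, 6 were 2-fold or more higher and 3 lower, with a median log2 ratio of 0.86. Il1b was at 10070.1 CPM in the members and 1048 (996 to 1102) in the day 3 cells, a log2 ratio of 3.26 (3.19 to 3.34). Il1a was at 453 against 9.51 (5.20 to 16.0), Cxcl3 at 2228 against 55.7 (44.3 to 69.1), Cxcl2 at 24613 against 6079 (5954 to 6206) and Ccl7 at 1721 against 336 (307 to 366). Of 8 CXC chemokines 6 were past 2-fold and of 9 CC chemokines 8, with 0 lower in either list and median log2 ratios of 2.49 and 1.97, before the overall shift of -0.21 is taken off. Il6 was at 60.1 against 2.04 (0.420 to 5.95), where the day 3 value rests on 3 UMIs.

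Several genes were not found in the day 3 cells at all. Csf3, the neutrophil growth factor G-CSF, had 632 UMIs in 110 members and 0 on day 3, at least 34.8-fold higher if 3 UMIs are taken as the limit that a count of 0 allows. Ppbp had 834 UMIs in 67 members and 0 on day 3, at least 45.9-fold higher, with 56.6% of them in 5 members. With a Vcan minimum of 2 UMIs in place of 3 its log2 ratio was 4.41, against 8.11 with 0.5 added to the count of 0, which is no bound. Ccl5 had 295 UMIs in 20 members and 0 on day 3, at least 16.2-fold higher. In the other direction Ube2c, a ubiquitin enzyme of mitosis, had 0 UMIs in the members and 55 UMIs on day 3, at least 111-fold lower on day 1.

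Arg1 and Serpinb2 were also far higher on day 1. Arg1 was at 918 CPM in the members and 13.6 (8.30 to 21.0) on day 3, a log2 ratio of 6.04 (5.45 to 6.79), and Serpinb2 at 228 and 15.6 (9.90 to 23.4), a log2 ratio of 3.84 (3.28 to 4.53). Cd14, the co-receptor for lipopolysaccharide, was at 5153 and 993 (943 to 1045), Fn1 at 2939 and 751 (707 to 796), and Mmp19 at 262 and 107 (91.2 to 125). Vcan, which chose both groups, was at 848 and 737 (694 to 782), Dmkn at 189 and 174 (153 to 197), Hp at 239 and 238 (214 to 265) and Lcn2 at 241 and 220.1 (197 to 245), all with log2 ratios from 0.00 to 0.20.

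The genes lower on day 1 included interferon response genes. Of 11 interferon response genes compared, 8 were 2-fold or more lower on day 1 and 0 higher (median log2 ratio -1.58, well below the overall -0.21), with Irf7 at 27.8 against 82.9 (68.8 to 98.9) CPM and Oasl2 at 8.18 against 49.6 (38.9 to 62.3). Cx3cr1, the fractalkine receptor, was at 4.59 (3.30 to 6.23) against 46.9 (36.5 to 59.3), Timp2, a metalloproteinase inhibitor, at 11.7 (9.52 to 14.1) against 94.4 (79.4 to 111), Lpl, the lipoprotein lipase, at 86.5 (80.5 to 92.8) against 427 (394 to 461) and Trem2 at 62.4 against 271 (245 to 299). Of 24 lysosomal genes 5 were lower and 0 higher, of 4 resident-like macrophage markers 1 was lower and of 8 class II macrophage markers 2. The immediate early gene Egr1 was at 56.1 (51.3 to 61.3) against 288 (261 to 317), and Stmn1, a microtubule regulator of dividing cells, at 10.6 (8.61 to 13.01) against 56.4 (44.9 to 69.9).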

How the data were processed

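Per the labels, cells were processed with 3′ droplet kits, and the submitters' processing notes name Cell Ranger 5.0.0 and the mouse build mm10, while the header of each matrix names Cell Ranger 4; which version made them, and why the barcode lists differ, was not settled. The deposited matrices hold whole UMI counts per gene and barcode made by the authors, not normalized and not filtered to cells, with 737280 listed barcodes on day 1 and 6794880 on day 3. Depth was 74852240 and 102565783 UMIs. The 7367 day 1 barcodes with most UMIs were taken as cells, and the gates above applied. No batch label was given beyond the library. Doublets had been sorted against by scatter, and removal of the highest Scrublet scores was an alternative.

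Here UMIs were summed over the cells of a group, scaled to CPM, and compared as log2 ratios with 0.5 added to each count, for genes with at least 100 UMIs over both groups, leaving mitochondrial, ribosomal protein and gate genes out of the counts of genes. Cells are not replicates, so no test was made. Thinning drew a fixed number of UMIs from each cell. Ratios and intervals were tested on simulated counts. Genes named are the markers, the 12 highest and lowest ratios of each comparison, the extremes and highest levels of each gene list, the most variable genes and those most correlated with the Vcan share, and genes of lists added later. The members and lists were chosen with earlier results of these data known. Some genes that this rule names are not reported here. Python 3.11.15, numpy 2.4.6, scipy 1.17.1, pandas 2.3.3, scikit-learn 1.9.0, scanpy 1.11.5 and matplotlib 3.10.9 were used.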

Additional observations from a re-analysis of the deposited data

How the results depend on the processing

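The number of members, 742, lay between 462 and 805 over 12 alternatives, and 462 came from applying the Vcan and Pf4 conditions to cells thinned to 4000 UMIs, which lowers every Vcan count. Genes past 2-fold against Pf4-dominant cells numbered 179, and 496 with a minimum of 20 UMIs, 70 with 500 UMIs and 326 with cells thinned before summing. Against Plac8-high cells there were 293, and 875 with 20 UMIs, 74 with 500 UMIs and 648 with Plac8 under 0.05% for members and at least 0.2% for Plac8-high cells. Against day 3 there were 803, and 2027 with 20 UMIs and 211 with 500 UMIs. The UMI minimum sets how many low genes are compared, and thinning removes UMIs; the cause of the change with the Plac8 limits was not tested. The other 17 of 20, 17 of 20 and 18 of 20 alternatives stayed within 1.5 times. Of 300 named ratios past 2-fold, 274 to 300 stayed past it in each setting, and at most 4 changed sign, Ccn2 against Pf4-dominant cells among them (log2 ratio -0.39 with the thinned conditions). The 18 sterol synthesis genes, listed after the levels had been seen, were above equality against Pf4-dominant cells in every setting. Leaving out genes with over 50% of UMIs in 5 cells, chosen after seeing the data, gave 164, 274 and 767 genes. Removing the highest Scrublet scores took 54 members away. No paired analysis was possible because each time point is 1 library. No replicate could be left out.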
